A study of Mus musculus with 8 samples.

Results

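Spondin 2 (Spon2, ENSMUSG00000037379) and its relative spondin 1 (Spon1, ENSMUSG00000038156) were followed across 8 RNA sequencing libraries of mouse lung. They are 2 of the 52636 genes counted. Spon2 was chosen from these same data because it had the strongest fall among the genes called in elastase+LPS lungs, and Spon1 was taken with it as the family member. The fall of Spon2 between elastase+LPS and PBS lungs is therefore a description and was not tested. The rule names no diet, so this holds on both diets. The study asked what the herbal medicine TJ-41 (hochuekkito) does in a model of chronic obstructive pulmonary disease.

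The mice were wild type males of the C57BL/6 strain. The PBS groups received PBS alone. The elastase+LPS groups, the COPD mice model of the study, received porcine pancreatic elastase, which breaks down alveolar walls, followed by lipopolysaccharide (LPS), the bacterial cell wall component that provokes neutrophilic inflammation. Within each treatment one group ate the control diet and one ate a diet holding 2% TJ-41. Diets began at 8 weeks of age, elastase or PBS was given at 10 weeks, and the first of 3 doses of LPS or PBS was given at 12 weeks. Each of the 4 groups holds 2 libraries of total RNA from lung. The hour and day of RNA collection, and whether a library is 1 mouse or a pool, are not given in the sources used here. Nothing states that the 2 libraries of a group come from separate animals, so p-values measure only the spread between these libraries. In RNA from whole lung, fewer cells of a type and less RNA per cell cannot be told apart.

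Spon2 protein, also called mindin, is secreted into the extracellular matrix. It binds LPS and the surface of bacteria, serves as an opsonin for macrophages, and is a ligand for integrins on leukocytes. Spon1 protein, also called F-spondin, is a matrix protein best known from the floor plate of the developing spinal cord, where it guides axons, and it binds the amyloid precursor protein and receptors of the ApoE family. Both proteins hold a spondin domain and thrombospondin type 1 repeats, and Spon1 also holds a domain like that of reelin.

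In the genome build GRCm38 (mm10) and GENCODE release M21, Spon2 lies on the minus strand at chr5:33198184-33218455 and Spon1 on the plus strand at chr7:113765998-114043370. No annotated gene overlaps either of them. The main coding transcript of Spon2 (Spon2-201) has 2045 bases in 6 exons with a coding sequence of 993 bases, and that of Spon1 (Spon1-201) has 6161 bases in 16 exons with a coding sequence of 2424 bases. The stretch in which the 2 coding sequences resemble each other most without a gap is shown, because it tells how far reads of one gene could be counted on the other. It spans bases 521 to 620 of the Spon2 coding sequence and bases 1022 to 1121 of the Spon1 coding sequence, counted from the start codon and read 5′ to 3′ in the sense of each transcript, and capitals mark bases that are identical in both.
Spon2: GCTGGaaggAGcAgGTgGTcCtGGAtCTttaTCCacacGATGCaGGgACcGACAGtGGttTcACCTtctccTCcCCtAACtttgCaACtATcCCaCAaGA
Spon1: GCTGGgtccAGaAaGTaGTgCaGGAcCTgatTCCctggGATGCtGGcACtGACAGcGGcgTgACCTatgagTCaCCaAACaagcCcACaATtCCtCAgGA
Over these 100 bases 60 were identical, and the longest run of identical bases was 5. The longest run shared anywhere by the 2 coding sequences was 12 bases. None of the 2990 different runs of 50 bases in the Spon2 transcripts, and none of the 10333 in the Spon1 transcripts, occurs in the transcripts of another gene. A read of that length that matches either gene exactly matches no other annotated transcript.

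The libraries held 18767295 to 20888042 counts each. Levels are given as CPM, which are counts scaled by library size, after TMM scaling, which sets library sizes so that most genes keep their level, and the scaling factors ran from 0.935 to 1.02. No library was a copy of its partner, since the variance between replicates was 11.5 to 84.6 times that from counting alone. The 2 elastase+LPS libraries on the control diet stood farthest apart, with a median absolute log2 difference between them of 0.450 over genes, against 0.137 to 0.222 in the other groups.

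Spon2 was abundant in PBS lungs and low in every elastase+LPS lung. On the control diet, the PBS libraries had 59.5 and 55.9 CPM of Spon2 (1137 and 1077 counts) and the elastase+LPS libraries 5.53 and 4.82 CPM (106 and 94 counts). On the TJ-41 diet, the PBS libraries had 49.8 and 54.8 CPM (973 and 1014 counts) and the elastase+LPS libraries 5.43 and 3.94 CPM (104 and 77 counts). The treatments did not overlap, and the lowest of the 4 PBS libraries was 9.02 times the highest of the 4 elastase+LPS libraries. The exact 95% Poisson intervals, which cover counting error only, stayed apart as well, with no elastase+LPS bound above 6.69 CPM and no PBS bound below 46.8 CPM.

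**Figure D1:**
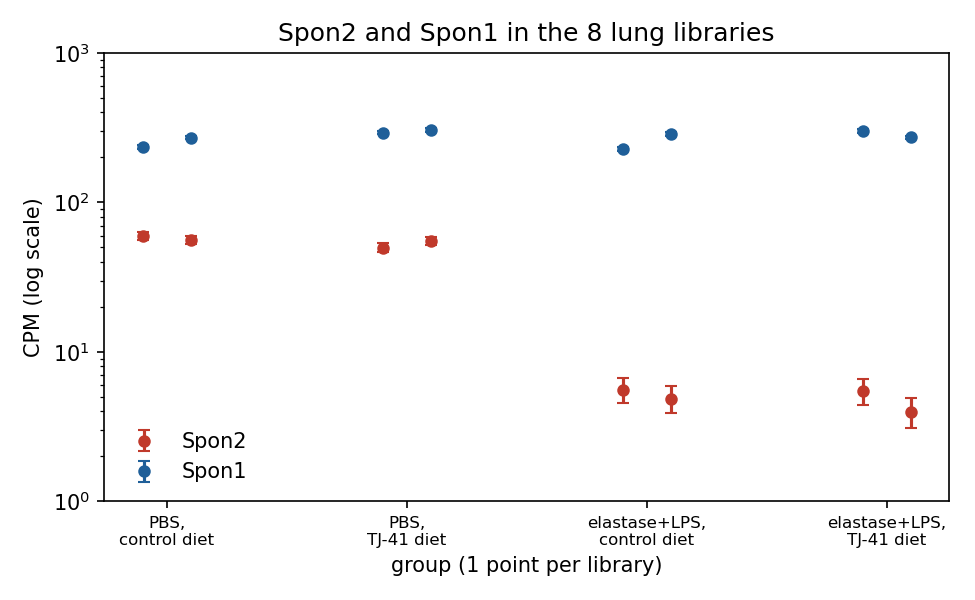
Level of Spon2 (red) and Spon1 (blue) in each of the 8 libraries, in CPM on a log axis, by group, with 1 point per library and bars for the exact 95% Poisson interval of its count. The 4 elastase+LPS libraries sit between 3.94 and 5.53 CPM for Spon2, below all PBS libraries, while the Spon1 points of the groups overlap.

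The fitted log2 fold change of Spon2 was -3.48 on the control diet (SE 0.21), which is 11.1 times lower in elastase+LPS lungs (95% interval 7.98 to 15.6 times). In the libraries of the TJ-41 diet it was also -3.48 (SE 0.21), or 11.2 times lower (95% interval 7.99 to 15.6 times). Both are given without a p-value, for the reason stated above. The intervals of this fall, here and for the average below, take no account of how Spon2 was chosen. On the control diet 25 of the 20546 genes tested were called (0.122%), 4 of them lower (0.0195%), and on the TJ-41 diet 16 (0.0779%), again with 4 lower (0.0195%). A call required an adjusted p under 0.05 in the quasi-likelihood test of edgeR, adjusted by Benjamini-Hochberg, and a log2 fold change beyond 1. Leaving out 1 library moved these numbers to between 3 and 1343 on the control diet, the highest without replicate 1 of the elastase+LPS group on the control diet, and to between 2 and 168 on the TJ-41 diet. Averaged over both diets, the log2 fold change of Spon2 was -3.48 (SE 0.15, 95% interval -3.82 to -3.14), also a description, and 91 genes (0.443%) were called, 21 lower (0.102%) and 70 higher (0.341%). That number ran from 15 to 873 when 1 library was left out, again highest without replicate 1 of the elastase+LPS group on the control diet.

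By the size of the fall alone, Spon2 ranked 5 of 20546 on the control diet. The 4 genes ranked lower were Gm24867 (-5.73), Alb, the gene of serum albumin (-4.87), Gm35533 (-4.16) and Gm37087 (-3.57 log2), and none of them was called. Their levels were low or unequal within a group: Alb had 30.1 CPM in 1 PBS library and at most 1.04 CPM in each of the other 7, and the other three never passed 1.82 CPM. Just above Spon2 in this order were Gm37752 (-3.42) and Rpl17-ps11 (-3.27 log2), also not called. Among genes called and lower, Spon2 was followed by the clock genes Arntl (-2.96) and Npas2 (-2.51), and by Slc7a10 (-1.62 log2), a transporter of small neutral amino acids.

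Spon1 showed no such change. On the control diet the PBS libraries had 234 and 271 CPM of Spon1 (4481 and 5229 counts), and the elastase+LPS libraries 228 and 287 CPM (4367 and 5604 counts). On the TJ-41 diet the PBS libraries had 292 and 304 CPM (5708 and 5632 counts), and the elastase+LPS libraries 300 and 273 CPM (5750 and 5337 counts). The 2 treatments overlapped over almost their whole range. The fitted log2 fold change of Spon1 in elastase+LPS lungs was 0.03 on the control diet (SE 0.18, 95% interval -0.38 to 0.43) and -0.06 on the TJ-41 diet (SE 0.18, 95% interval -0.46 to 0.35), with adjusted p of 0.994 and 0.934 (the quasi-likelihood test of edgeR, adjusted by Benjamini-Hochberg). Over both diets the difference in mean log2 CPM between 4 elastase+LPS and 4 PBS libraries was -0.02 (two-sided exact permutation test, p = 0.8, where 0.0286 is the smallest p possible). The intervals exclude a rise or fall of Spon1 as large as 1 on the log2 scale, and they leave room for smaller ones.

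Because the genes differ in length, their levels were compared per kilobase of annotated exon (2947 bases for Spon2, 10382 for Spon1). On this scale Spon2 and Spon1 stood at 19.6 and 24.4 CPM per kb in PBS lungs on the control diet, and at 17.8 and 28.7 on the TJ-41 diet. In elastase+LPS lungs Spon2 stood at 1.76 CPM per kb on the control diet against 24.8 for Spon1, and at 1.59 on the TJ-41 diet against 27.6. Spon2 thus ran at 60.1% to 89.4% of the Spon1 level per length in the 4 PBS libraries and at 5.08% to 8.55% in the 4 elastase+LPS libraries. With the length of the main coding transcript in place of all exons, the group values were 68.7% and 52.8% in PBS lungs and 6.05% and 4.92% in elastase+LPS lungs, on the control and the TJ-41 diet. Ranked by level per length among 20517 genes, Spon2 moved from the 84.0 and 82.5 percentile in PBS lungs to the 28.7 and 27.0 percentile in elastase+LPS lungs, and Spon1 stayed between the 87.0 and 89.8 percentile in all 4 groups.

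The replicates of Spon2 differed little for a gene of these data. The log2 difference between the 2 libraries was 0.09 in PBS lungs on the control diet, 0.14 in PBS lungs on the TJ-41 diet and 0.20 in elastase+LPS lungs on the control diet, each below the median gene of its group. In elastase+LPS lungs on the TJ-41 diet it was 0.46, larger than in 88.8% of genes at 1 CPM or more in that group, where Spon2 had 104 and 77 counts. The biological coefficient of variation was 0.153 for Spon2 and 0.145 for Spon1, against 0.208 common to all genes.

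The comparison of diets asks whether TJ-41 was accompanied by another level of either gene. In PBS lungs, the Spon2 mean was 57.7 ± 2.51 CPM on the control diet and 52.3 ± 3.52 CPM on the TJ-41 diet (SD, n = 2 each). In elastase+LPS lungs it was 5.17 ± 0.500 CPM and 4.68 ± 1.05 CPM (SD, n = 2 each). The log2 fold change of Spon2 for TJ-41 was -0.14 in PBS lungs (SE 0.19, 95% interval -0.57 to 0.28) and -0.14 in elastase+LPS lungs (SE 0.21, 95% interval -0.62 to 0.33), with adjusted p of 0.996 and 0.991 (the quasi-likelihood test of edgeR, adjusted by Benjamini-Hochberg). These comparisons use the same libraries as the rule that chose Spon2, on another contrast. For scale, a return of Spon2 to the PBS level would be a rise of over 3 on the log2 scale, and the upper bound of the interval was 0.33.

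For Spon1 the means were 253 ± 26.2 and 298 ± 8.54 CPM in PBS lungs, and 258 ± 42.2 and 286 ± 19.2 CPM in elastase+LPS lungs, on the control and the TJ-41 diet (SD, n = 2 each). The log2 fold change of Spon1 for TJ-41 was 0.24 in PBS lungs (SE 0.18, 95% interval -0.17 to 0.64) and 0.15 in elastase+LPS lungs (SE 0.18, 95% interval -0.25 to 0.56), with adjusted p of 0.996 and 0.991 in the same test. With diets permuted within each treatment, the difference in mean log2 CPM over all 8 libraries was 0.20 for Spon1 (two-sided exact permutation test, p = 0.111) and -0.15 for Spon2 (p = 0.278), and the smallest p this design allows is 0.0556. In PBS lungs both Spon1 libraries on TJ-41 lay above both on the control diet, and both Spon2 libraries on TJ-41 lay below both on the control diet. In elastase+LPS lungs the diets overlapped for each gene. For the diet, edgeR's quasi-likelihood test called 0 of 20546 genes in PBS lungs (0%; 336 genes at an unadjusted p under 0.05, and 6 genes called by DESeq2) and 1 gene, neither Spon2 nor Spon1, in elastase+LPS lungs (0.00487%; 842 genes at an unadjusted p under 0.05, and 10 called by DESeq2). The number called by edgeR there ran from 0 to 728 when 1 library was left out, highest without replicate 1 of the elastase+LPS group on the control diet.

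The fold changes of elastase+LPS lungs on the 2 diets were set against each other directly. Their difference was -0.0036 for Spon2 (SE 0.27, 95% interval -0.61 to 0.61) and -0.09 for Spon1 (SE 0.25, 95% interval -0.66 to 0.49), on the log2 scale, with an adjusted p of 0.999 for each in the quasi-likelihood test of edgeR, adjusted by Benjamini-Hochberg. The fall of Spon2 on one diet could thus differ from that on the other by up to 1.53 times in either direction within this interval.

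**Figure D2:**
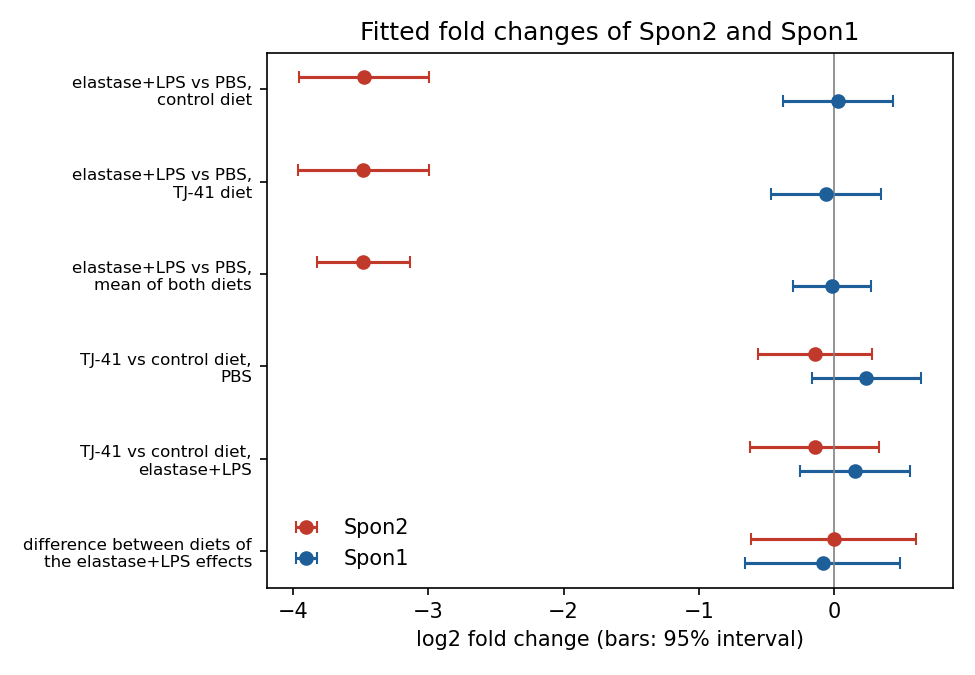
Fitted log2 fold changes (horizontal axis) of Spon2 (red) and Spon1 (blue) in 6 comparisons, with bars for the 95% interval. The Spon2 points of elastase+LPS lungs lie at -3.48, and their bars take no account of how Spon2 was chosen. The bars of all Spon1 points, and of Spon2 for the diet, include 0.

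The secreted relatives of Spon2 mostly had fold changes near 0. Of 35 listed genes for spondins, thrombospondins, R-spondins, CCN proteins and other secreted proteins with thrombospondin repeats, 29 passed the filter on low counts. Apart from Spon2, which the rule chose, edgeR and DESeq2 called 0 of the other 28 on either diet, where 0.122% and 0.0779% of all genes were called by edgeR, so a list of this size would hold few or no calls at that share. At an unadjusted p under 0.05 were Rspo4 and Thbs1 on the control diet and Rspo4 on the TJ-41 diet. The median log2 fold change of the 29 was -0.02 on the control diet and 0.03 on the TJ-41 diet, beside 0.0073 and -0.0016 over all genes. Thbs4, Comp, Rspo2, Ccn6, Ism2 and Sema5b did not pass the filter.

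A few of these relatives are named here after their values were seen. Rspo4, which amplifies Wnt signalling, had 0.994, 0.883, 0.615 and 0.541 CPM in the PBS libraries and 0.261, 0.359, 0.0522 and 0.102 CPM in the elastase+LPS libraries, in the order control diet then TJ-41. The treatments did not overlap, but all these levels are under 1 CPM, and the log2 fold changes of -1.58 and -2.80 had adjusted p of 0.464 and 0.383 (edgeR). Thbs1, the gene of thrombospondin 1, ranged from 211 to 891 CPM in PBS lungs and from 120 to 370 CPM in elastase+LPS lungs. Its treatments overlapped over both diets and within the TJ-41 diet, but not within the control diet (463 and 891 against 197 and 370 CPM). Its log2 fold changes of -1.26 and -1.21 had adjusted p of 0.647 and 0.762 (edgeR). At the other end of the list stood Thsd7b at 1.14 and 0.60 and Ccn5 at 0.18 and 0.79 log2, none of them called. The closest relative by name after Spon1, Sspo, which encodes the subcommissural organ spondin, had 2.51 to 4.33 CPM in all libraries, with log2 fold changes of -0.11 and 0.38.

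**Figure D3:**
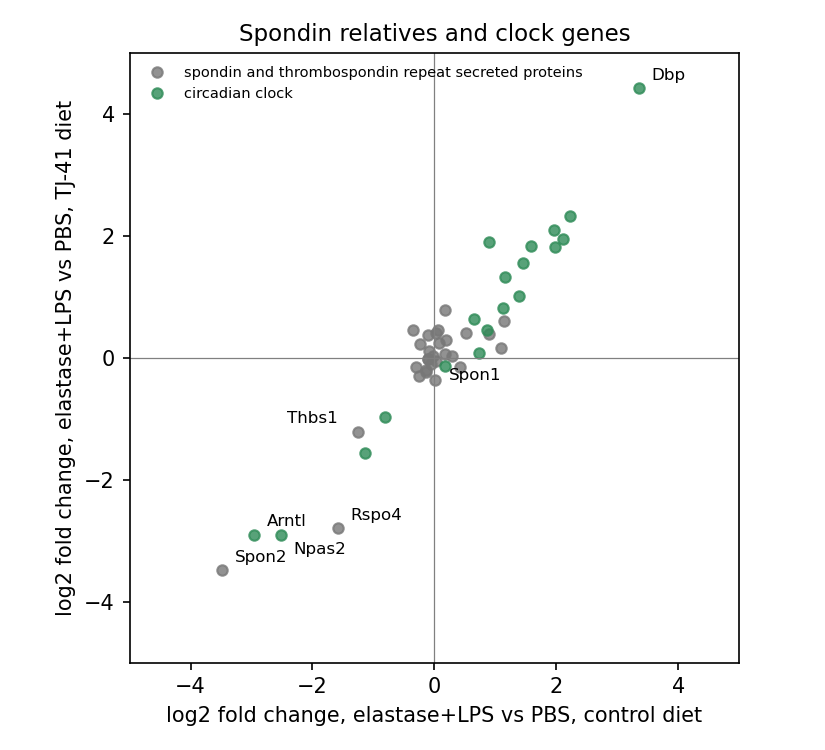
Log2 fold change of elastase+LPS lungs against PBS lungs on the control diet (horizontal axis) and on the TJ-41 diet (vertical axis), with 1 point per tested gene of the secreted thrombospondin repeat list (grey, 29 genes) and of the circadian clock list (green, 19 genes). Spon2 lies at -3.48 on both axes, apart from Spon1 and most grey points, which lie near 0.

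The integrin receptors of Spon2 had fold changes between -0.68 and 0.84 on the log2 scale. All 7 listed integrin genes were tested, and edgeR called 0 of them on either diet, as did DESeq2. With 0.122% and 0.0779% of all genes called, 0 of 7 does not set the receptors apart, and the same holds for the 3 groups of LPS genes, Spon1 partners and neighbours that follow. At an unadjusted p under 0.05 were 0 genes on the control diet and 2 on the TJ-41 diet, Itgb2 and Itgb3. The median log2 fold changes were -0.09 and -0.24. On the control diet Itgam, the alpha chain of the macrophage receptor Mac-1, had the highest value (0.37) and Itga5, a chain of the fibronectin receptor, the lowest (-0.24). On the TJ-41 diet Itgb2, the shared beta chain of leukocyte integrins, had the highest (0.84, adjusted p = 0.509 in edgeR) and Itga4 the lowest (-0.68, adjusted p = 0.785 in edgeR). Itgb2 had 77.2 to 105 CPM in PBS lungs and 94.3 to 163 CPM in elastase+LPS lungs, and the ranges overlapped over both diets. Within the TJ-41 diet they did not, with 104 and 77.2 CPM in PBS lungs against 162 and 163 CPM.

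The genes that recognise LPS, the bacterial ligand of Spon2, gave 0 calls of 13 on either diet in edgeR and in DESeq2, with medians of -0.04 and 0.03 and 1 gene on each diet at an unadjusted p under 0.05. Cd14, the co-receptor that passes LPS on, had a log2 fold change of 0.78 on the control diet, where its elastase+LPS libraries stood at 27.0 and 56.8 CPM against 25.1 and 23.8 CPM in PBS lungs, so that 1 library carried most of the difference (adjusted p = 0.559 in edgeR). Ticam2, an adaptor of Tlr4, was the lowest there at -0.60. With TJ-41, Lbp, the LPS binding protein, was highest at 0.70 and Ly96, the partner of Tlr4 in the receptor, lowest at -0.59. Tlr4 itself had log2 fold changes of -0.05 and -0.34, with adjusted p of 0.994 and 0.799 (edgeR).

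The list of Spon1 partners holds genes of proteins that bind Spon1, and also Reln and Dab1 of the reelin pathway. It gave 0 calls of 7 on either diet in edgeR and in DESeq2, with medians of 0.06 and 0.07. At an unadjusted p under 0.05 were Reln on the control diet and Reln and Lrp8 on the TJ-41 diet. App, which encodes the amyloid precursor protein, had 942 to 1138 CPM over all 8 libraries and log2 fold changes of 0.02 and 0.07. Reln, whose product reelin shares receptors with Spon1, had 8.84, 14.3, 18.6 and 21.9 CPM in the PBS libraries and 23.9, 20.2, 28.4 and 33.4 CPM in the elastase+LPS libraries. Its ranges overlapped over all 8 libraries but not within a diet, and its log2 fold changes of 0.93 and 0.61 had adjusted p of 0.361 and 0.728 (edgeR). Lrp8, the receptor also called ApoER2, had log2 fold changes of 0.21 and 0.76. The lowest values were those of Aplp1 on the control diet (-0.34) and of Dab1, the adaptor below the reelin receptors, on the TJ-41 diet (-0.21).

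The genes whose pattern over the 8 libraries was most like that of Spon2 were sought among 18057 genes at 1 CPM or more. The measure was the root mean square difference of log2 CPM, with each gene centred on its own mean. The nearest was Arntl (also called Bmal1), the transcription factor at the centre of the circadian clock, at a difference of 0.51, and next came Npas2, a partner of Arntl, at 0.55, and Ccnjl at 0.61. Htr2c, Adamts17, B530045E10Rik, Fam124b and Gm30648 followed at 0.75 to 0.93. By Pearson correlation, 0 of these 8 were among the 8 nearest, so the names depend on the measure. Arntl had 44.3, 36.8, 54.7 and 50.9 CPM in the PBS libraries and 7.56, 2.87, 7.67 and 6.44 CPM in the elastase+LPS libraries. Npas2 had 10.2, 10.8, 17.9 and 10.8 CPM in the PBS libraries and 1.36, 2.31, 2.09 and 1.74 CPM in the elastase+LPS libraries. Both were called lower on each diet, with log2 fold changes of -2.96 and -2.90 for Arntl and -2.51 and -2.90 for Npas2. A profile near that of Spon2 holds such a fall by construction, so these calls are not separate evidence. Within a treatment they did not follow Spon2 library by library: the lowest elastase+LPS library was replicate 2 on the control diet for Arntl, replicate 1 on the control diet for Npas2 and replicate 2 on the TJ-41 diet for Spon2.

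The profile nearest to the mirror image of Spon2 was that of Dbp, a transcription factor driven by the clock, at a difference of 0.48. Dbp had 15.6, 21.3, 8.76 and 9.51 CPM in the PBS libraries and 194, 185, 193 and 200.3 CPM in the elastase+LPS libraries, and its log2 fold changes were 3.36 and 4.43. The immunoglobulin segments Ighv3-6 and Igkv4-68 followed at 0.53 and 0.57. Such segments resemble one another in sequence, so their counts are uncertain. For Spon1, whose level hardly moved, the nearest profiles were those of Tacc1, Polr3e, Tmem80, Scd2 and Sept8, at differences of 0.07 to 0.08, and none of these was called.

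**Figure D4:**
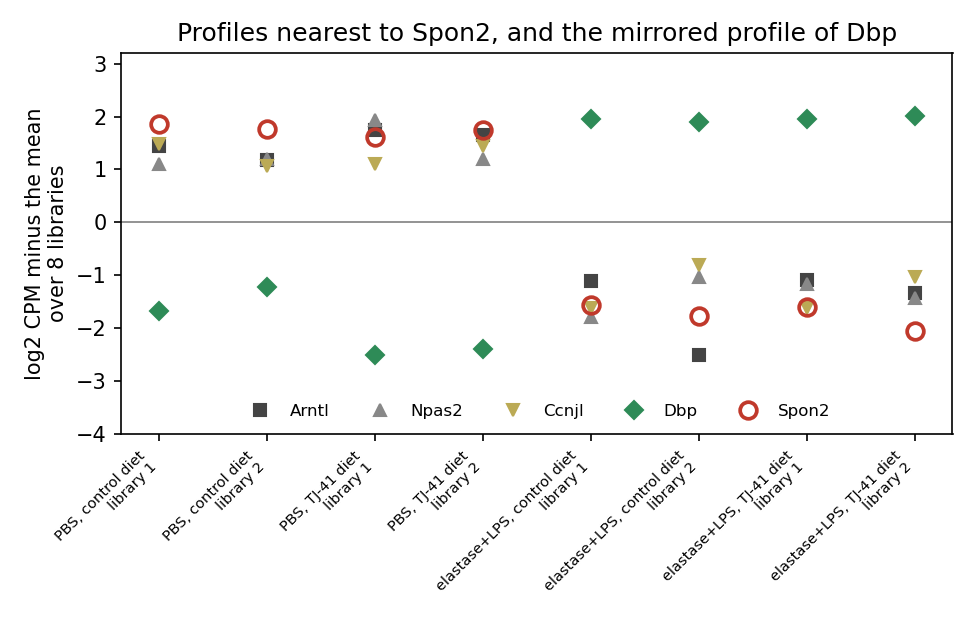
Log2 CPM minus the gene's mean over the 8 libraries (vertical axis) for Spon2 (open red circles), the 3 genes with the nearest profiles (Arntl, Npas2 and Ccnjl) and Dbp, whose profile is the nearest to the mirror image, by library. Spon2, Arntl, Npas2 and Ccnjl are high in the 4 PBS libraries and low in the 4 elastase+LPS libraries, and Dbp is the reverse.

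Many of the listed circadian clock genes differed between the treatments. Of 19 tested, edgeR called 6 higher and 2 lower on each diet, and 11 did not pass. Of all genes, edgeR called 0.102% and 0.0584% higher on the control and the TJ-41 diet, and 0.0195% lower on each. At an unadjusted p under 0.05 were 18 and 15 of the 19, beside 1582 and 1347 of all 20546 genes. DESeq2 called 11 and 12 of the 19, beside 172 and 116 of all genes. The median log2 fold change of the 19 was 1.13 and 1.02. Their summed level was 855 to 1120 CPM in the PBS libraries and 2119 to 2213 CPM in the elastase+LPS libraries, without overlap. On the control diet the members called by edgeR were Dbp, Tef, Hlf, Per2, Per3 and Bhlhe41, which were higher, and Arntl and Npas2, which were lower. On the TJ-41 diet edgeR called Nr1d1, a repressor of Arntl (1.89), but not Per2 (1.82, adjusted p = 0.080 in edgeR). It called the rest on both. The part of the clock, or of the hour of collection, in the fall of Spon2 was not tested.

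The neighbours of Spon2 on chromosome 5 were read in the same fit. Of the 8 tested genes within 250 kb, edgeR called 0 on either diet, and 1 of them, Slc5a1, was at an unadjusted p under 0.05 on both. Ctbp1, a transcriptional corepressor and the nearest tested gene upstream, at a gap of 29268 bases, had log2 fold changes of -0.25 and 0.04. Slc5a1, the sodium and glucose cotransporter and the nearest tested gene downstream, at 35314 bases, had log2 fold changes of 1.83 and 1.24, opposite in sign to Spon2, with adjusted p of 0.093 and 0.402 (edgeR), and DESeq2 called it higher on both diets. The other 6 ranged from -1.10 to 0.38 over both diets. Around Spon1, edgeR and DESeq2 called 0 of 5 tested genes on either diet, and 1 was at an unadjusted p under 0.05, Rras2, a small GTPase, downstream at 3412 bases (-0.43 and -0.51). Far1, a fatty acyl-CoA reductase, lay upstream (-0.02 and -0.61).

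**Figure D5:**
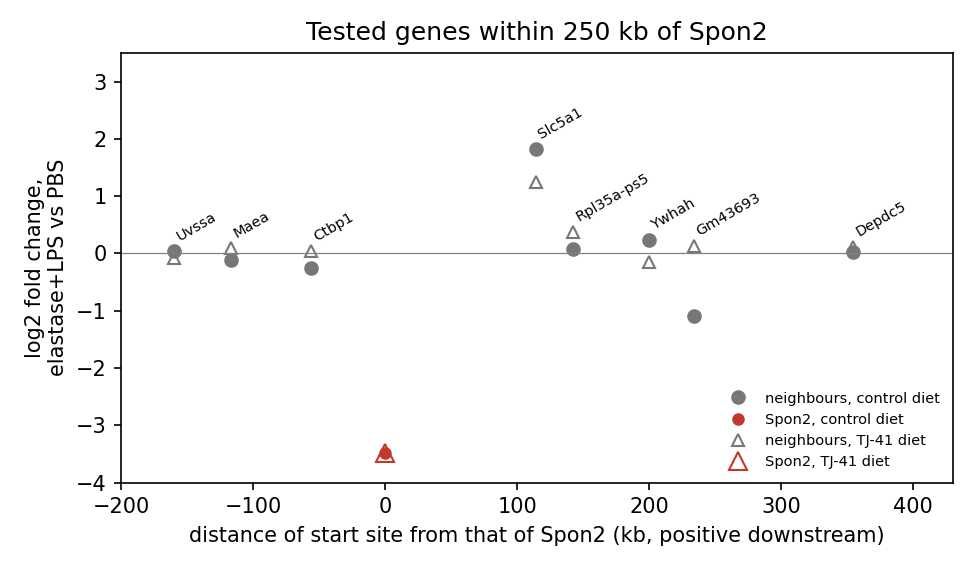
Log2 fold change of elastase+LPS lungs against PBS lungs (vertical axis) for Spon2 (red) and the 8 tested genes within 250 kb of it (grey), by the distance of their start sites from that of Spon2 in kb, on the control diet (filled circles) and the TJ-41 diet (open triangles). Both Spon2 symbols lie at -3.48, and the neighbours lie between -1.10 and 1.83.

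Markers of the cells in the lung were read beside the fall of Spon2. Natural killer cell markers gave 0 calls of 8 in edgeR and in DESeq2 (0 and 1 at an unadjusted p under 0.05), and all 8 had log2 fold changes below 0 on both diets, with medians of -0.24 and -0.69. Their summed level was 84.0 to 120 CPM in PBS lungs and 38.0 to 128 CPM in elastase+LPS lungs, with overlap over both diets. These ends were all of the control diet, where 1 elastase+LPS library lay below both PBS libraries and the other above both. On the TJ-41 diet the sums did not overlap, with 91.2 to 94.2 CPM in PBS lungs against 50.9 to 60.6 CPM. Summed endothelial markers were 3334 to 3905 CPM in PBS lungs and 3050 to 3329 CPM in elastase+LPS lungs, macrophage markers 644 to 792 against 999 to 1681 CPM, and plasma cell markers 935 to 1501 against 2344 to 4298 CPM, and these 3 did not overlap. Of them, 0 of 7 endothelial, 0 of 8 macrophage and 2 of 8 plasma cell genes were called on the control diet by edgeR, and none on the TJ-41 diet. DESeq2 called 0, 2 and 2 of them on each diet. The macrophage genes did not all move together. On the control diet 6 of 8 were higher and 2 lower (median 0.11, lowest -1.65), and with TJ-41 7 were higher and 1 lower (median 0.82, lowest -0.73). Of the endothelial genes 5 of 7 were lower on each diet, and of the plasma cell genes 8 and 7 of 8 were higher. The sums of smooth muscle (511 to 723 against 438 to 822 CPM), pericyte (839 to 1155 against 822 to 1069 CPM) and alveolar fibroblast markers (4522 to 4786 against 4074 to 5033 CPM) overlapped over both diets. So did those of adventitial fibroblast, mesothelial, alveolar type I and II, club, ciliated, neutrophil and heart muscle markers. Within a diet some of these did not overlap. On the TJ-41 diet, smooth muscle, pericyte, alveolar type I, club and heart muscle sums were all lower in elastase+LPS lungs, without overlap. Mesothelial and alveolar type II sums were higher there. On the control diet, alveolar fibroblast sums were lower, and ciliated and heart muscle sums higher. For heart muscle the control diet had 448 to 523 against 561 to 713 CPM, and TJ-41 387 to 581 against 273 to 340 CPM. No listed marker was at 0 in all libraries. The part of a change in cell makeup in the fall of Spon2 was not tested.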

How the data were processed

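The authors deposited whole-number read counts per Ensembl gene for each of 8 mouse lung libraries, without normalization. The submitters' processing notes name HISAT2, edgeR and mm10, and the study's methods name CLC Genomics Workbench. How reads were counted, against which annotation, with which strand setting and with what rule for multi-mapping reads is not given in the sources used here. Of 52636 identifiers, 52489 were found in GENCODE release M21 (GRCm38).

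Counts were fitted in R 4.3.3 with edgeR 4.0.16. filterByExpr chose the genes (minimum count 10, minimum total 15), TMM scaled the libraries, and genes were tested by quasi-likelihood with 1 mean for each of 4 groups, 4 residual degrees of freedom and adjustment over 20546 genes. The steps were tested on simulated data. Libraries were grouped by the labels, in which the diet appears as TJ41 and as TJ4. Replicate numbers share only a name.

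The members, gene lists and tests were chosen with earlier results of these data known. Genes named were the members, the 8 and 5 nearest profiles, the 3 mirrored ones, flanking genes, genes ranked next to Spon2, and called or extreme list members. Others were picked after their values were seen. Alternatives were other scaling, filters, tests (DESeq2 1.42.0, the exact test), a block, fewer samples and leaving out each library.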

Additional observations from a re-analysis of the deposited data

How the results depend on the processing

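The log2 fold change of Spon2 in elastase+LPS lungs, a description, ran from -3.58 to -3.38 over 17 alternatives on the control diet, from -3.72 to -3.26 over 17 on the TJ-41 diet and from -3.60 to -3.37 over 15 for their mean. Spon1 was called under none. Small differences changed sign. With library size alone, Spon1 on the control diet was -0.0280 and the difference between diets of Spon2 was 0.0560, and with all genes of at least 1 count the latter was 0.0022. Leaving out each library gave, for Spon1, -0.15 to 0.18 on the control diet, -0.124 to 0.0143 on the TJ-41 diet, -0.0985 to 0.0636 for their mean, -0.0027 to 0.33 for the diet in elastase+LPS lungs, -0.23 to 0.10 for the difference between diets, and -0.0960 to 0.0626 for the exact permutation comparison. For Spon2 it gave -0.390 to 0.0729 for the diet in elastase+LPS lungs and -0.24 to 0.22 for the difference between diets.

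Numbers of genes called moved more, and the cause was not tested. For elastase+LPS lungs on the control diet (25 genes) they were 147 with all genes of at least 1 count, 202 with the exact test and 172 with DESeq2, and 3 to 1343 leaving out each library. On the TJ-41 diet (16) they were 89 with all genes, 248 with only the groups compared, 128 with the exact test and 116 with DESeq2, and 2 to 168 leaving out each library. For the mean of both diets (91) they were 278 with all genes and 245 with DESeq2, and 15 to 873 leaving out each library. For TJ-41 in PBS lungs (0) they were 5 with only the groups compared, 6 with the exact test and 6 with DESeq2. For TJ-41 in elastase+LPS lungs (1) they were 2 with all genes, 0 with only the groups compared, 6 with the exact test, 10 with DESeq2 and 0 to 728 leaving out each library. For the difference between diets (0) they were 6 with all genes, 17 with DESeq2 and 0 to 14 leaving out each library. The highest numbers on the control diet (1343), for the mean (873) and for TJ-41 in elastase+LPS lungs (728) came without replicate 1 of the elastase+LPS group on the control diet. The exact test gives no value for the mean or the difference.

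Replicate numbers did not pair the libraries: correlations of replicate differences between groups ran from -0.250 to 0.158. With the replicate number as a block, TJ-41 in elastase+LPS lungs had 0 genes called, and Spon1 was called in no comparison, as without it. With Pearson correlation in place of the root mean square difference, 0 of 8 nearest, 0 of 3 mirrored and 1 of 5 Spon1 profiles were shared, so these names depend on the measure. At 77 to 106 counts in the elastase+LPS libraries, depth limits what can be seen of Spon2 there.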
